A study of Mus musculus with 44 samples.

Results

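Plasma cells sorted from the spleen as YFP+ or YFP- were compared within 4 mice that were 24 weeks old when they received tamoxifen and were taken 90 days later. These are 8 of the 44 libraries of the series, chosen by organ, age, day and sort in their labels, with 1 YFP+ and 1 YFP- library from each of mice M2, M3, F15 and F12. All mice carry the genotype labelled BEC-YFP. In the study from which these samples are known, this is a Cre made inducible by tamoxifen and driven, together with a tomato reporter, by the gene of the plasma cell factor Blimp1, with a YFP reporter that Cre switches on for good. Cells labelled LLPC are YFP+ and thus carry the mark set at tamoxifen. Cells labelled Bulk PC (TOM in the titles) are YFP- and can hold plasma cells made after tamoxifen as well as older cells in which the reporter was not switched on. The other groups used here have the same genotype and drug: marrow of the same 4 mice, spleen of mice 6 to 8 weeks old at tamoxifen taken at day 90 (called young, 3 YFP+ and 4 YFP- libraries), and spleen of 24-week mice taken at day 5 (4 YFP+ and 3 YFP- libraries). Replicates are separate mice per the titles, except that most day-5 titles give a date and no mouse. Day-5 libraries of the same date were taken as 1 mouse.

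Plasma cells are the antibody-secreting end stage of B cells. On the way they switch off most of the antigen-presenting and B cell receptor machinery, leave the cell cycle and expand the endoplasmic reticulum (ER). Most newly made plasma cells of the spleen are short-lived, and a part persists there or in the marrow, where survival depends on signals such as APRIL acting on BCMA and on the CD28 receptor. Marking plasma cells at one time and returning months later sets cells that have persisted against a population that also holds recent arrivals.

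The 8 libraries held 6643295 to 12663103 counts. Levels below are CPM, counts scaled to the size of the library and by TMM factors, and library values are given in the order M2, M3, F15, F12. Changes are log2 of YFP+ over YFP- from an edgeR quasi-likelihood fit of 43 libraries that includes a term for each mouse. The standard error (SE) given after ± is the size of the change divided by the square root of its F statistic. A gene passed when its adjusted p (Benjamini-Hochberg over 12457 genes) was under 0.05, and "rose" and "fell" refer to YFP+ cells. For results without a mouse, or in some mice alone, only spleen libraries of the mice left out were dropped. Their marrow libraries stayed in the fit. Every library held the defining plasma cell transcripts. The joining chain gene Jchain alone made up 18.6 to 35.3% of the counts, and the CD138 gene Sdc1 was at 190 CPM or more in each library. Markers of T cells summed to 11.9 to 38.6 CPM in all 8 libraries, and those of monocytes and macrophages to 327 to 836 CPM in YFP- and 619 to 889 CPM in YFP+ libraries. The latter sum was higher in the YFP+ library of each mouse (836 and 889 CPM in M2, 492 and 664 in M3, 511 and 704 in F15, 327 and 619 in F12), with 14 of 15 tested markers positive, a median of 1.22 and none passing. That median was -0.46 in M2 and M3 alone, 2.58 in F15 and F12 alone and 0.3 in limma voom. The part of these markers in the results was not tested. Erythroid markers summed to 3437 CPM in the YFP+ library of M3 and to 6.37 to 338 CPM in the other libraries. In bulk libraries, fewer cells of a type and less RNA per cell cannot be told apart.

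In YFP+ cells of the spleen 103 genes rose (0.827% of those tested) and 169 fell (1.36%), together 2.18%. The change was at least 2-fold for 64 of the genes that rose and 129 of those that fell. Over all genes tested the median change was 0.01. Of the genes that rose 101, and of those that fell 157, moved the same way in all 4 mice. Over all genes tested 2249 of 12457 did so, and the called genes were chosen by a test on these same pairs. Genes that fell included class II chains, some lymphocyte receptors of the SLAM family and beyond, some egress and adhesion receptors and some cell cycle genes. By p, Spag6, Rab3b, Wnt10a and Cyp4f18 led the genes that rose. Counts in the gene lists below stand against the shares of all genes, 0.827% rising and 1.36% falling. Some lists lay near these shares, such as the Rab GTPases, of which 2.08% rose, and the proteasome genes, of which 2% fell.

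**Figure D1:**
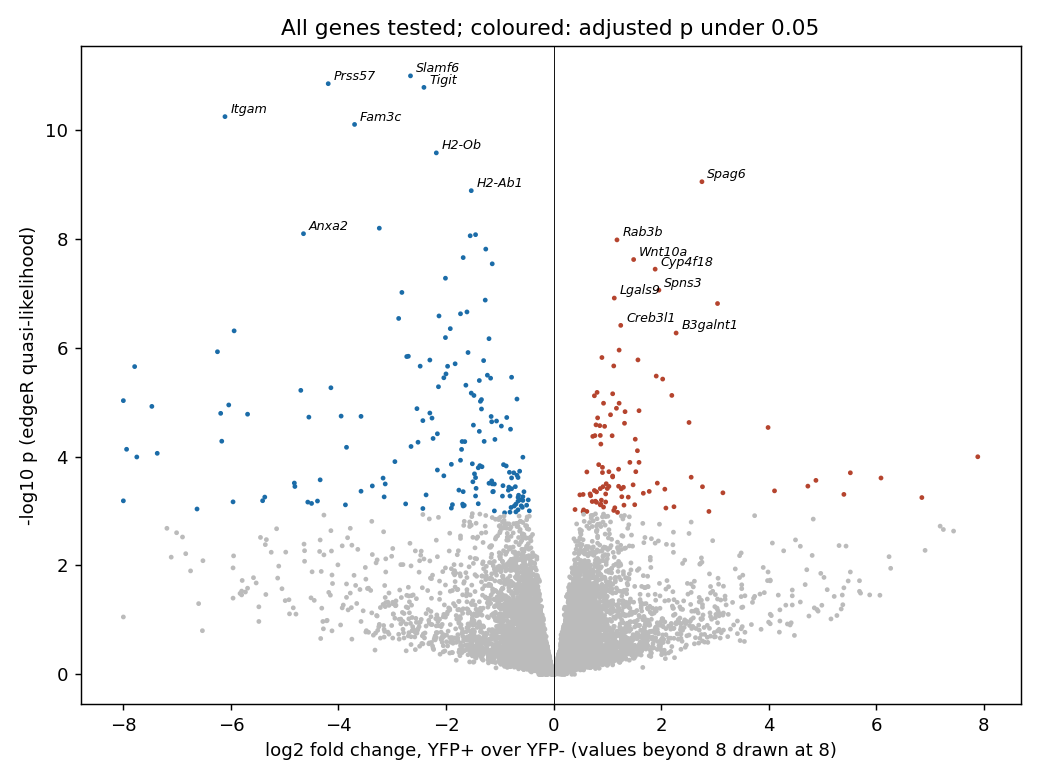
Each point is 1 of 12457 genes, with the log2 change of YFP+ over YFP- cells on the x axis and −log10 of the unadjusted p on the y axis. Red and blue points are the 103 genes that rose and the 169 that fell at an adjusted p under 0.05, and the names mark the 8 genes with the smallest p on each side that the naming rule takes.

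Class II molecules carry peptides to CD4 T cells, and B cells lose them as they become plasma cells. Of 9 genes of the class II pathway that were tested, 5 fell (55.6%, against 1.36% of all genes) and none rose. The median change of the list was -0.61 (-1.18 without F15 and -1.91 in M2 and M3 alone). The beta chain gene H2-Ab1 was at 1665, 1601, 962 and 1134 CPM in YFP- and at 418, 456, 494 and 454 CPM in YFP+ cells. The 4 YFP+ libraries lay close together, and the spread was among the YFP- libraries (-1.53 ± 0.18, adjusted p = 2.04e-06). H2-Eb1, the other classical beta chain, fell from 348, 329, 230 and 270 CPM to 99, 104, 154 and 140 CPM (-1.26 ± 0.16, adjusted p = 1.38e-05). The alpha chain gene H2-Aa fell from 299, 266, 166 and 147 CPM to 33.9, 45, 78.9 and 69 CPM (-2.01 ± 0.32). None of these 3 genes overlapped between the sorts, and for each the drop was larger in M2 and M3 than in F15 and F12.

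H2-Ob encodes the beta chain of the DO molecule, which holds back peptide loading in B cells. It was at 58.2, 50.3, 42.1 and 25.6 CPM in YFP- and at 11, 7.73, 10.9 and 8.34 CPM in YFP+ cells (-2.18 ± 0.23, adjusted p = 5.51e-07). The loading chaperone chain H2-DMa also passed (-0.61 ± 0.16), with overlapping groups. Its call ended when any one of the 4 mice was left out (adjusted p from 0.0536 without F15 to 0.241 without M2), without the mouse term (0.331) and with no filter (0.101). H2-DMb1, its partner chain, did not pass (-0.57 ± 0.21, adjusted p = 0.185). The invariant chain gene Cd74, which is far more abundant, did not pass either. It was at 12674, 18547, 16554 and 11112 CPM in YFP- and at 15114, 20476, 16007 and 12469 CPM in YFP+ cells (0.13 ± 0.16). The ranges of Cd74 in the sorts thus overlapped almost wholly, while those of the 3 classical chains did not overlap.

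Promoters of class II genes are known for an X box and a reverse CCAAT box (the Y box) at a fixed spacing, read by one shared assembly of factors. The sequences just upstream of 3 of the genes that fell are shown for that reason, as the 150 bases before the start of the gene in RefSeq (GRCm38.p6), on the strand of the gene and 5′ to 3′. Capitals mark the X box, searched as AGNAAC and, after any 2 bases, ATG (N is any base), and CCAAT or its reverse complement ATTGG. They lie at chr17:34305717-34305866 (plus strand), chr17:34238755-34238904 (plus strand) and chr17:34287824-34287973 (minus strand).
H2-Eb1: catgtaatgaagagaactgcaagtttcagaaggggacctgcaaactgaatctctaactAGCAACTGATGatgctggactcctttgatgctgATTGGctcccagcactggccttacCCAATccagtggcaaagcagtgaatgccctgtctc
H2-Ob: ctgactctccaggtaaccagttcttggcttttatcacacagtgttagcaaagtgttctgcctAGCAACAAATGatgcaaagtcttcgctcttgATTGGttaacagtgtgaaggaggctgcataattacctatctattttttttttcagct
H2-Aa: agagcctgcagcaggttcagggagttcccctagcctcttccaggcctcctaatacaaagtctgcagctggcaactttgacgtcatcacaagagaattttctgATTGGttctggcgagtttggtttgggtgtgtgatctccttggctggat
In H2-Eb1 and H2-Ob the X box began 33 and 31 bases upstream of an ATTGG. H2-Aa held the ATTGG and no match to these X box letters in its window. Searched on both strands of the 250 bases upstream of a start, the X box letters occurred in 0.715% of 32851 RefSeq windows and CCAAT in 33.8%. Of 7 class II genes with a window, 3 held the X box letters (H2-Eb1, H2-Ob and H2-DMb1) and all 7 held CCAAT. A match is a description of letters, and H2-DMb1 is among the genes that did not pass.

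Of 20 tested B cell receptor, coreceptor and B cell factor genes, 2 fell (10%, against 1.36% of all genes) and 1 rose (5%, against 0.827%). The list median was 0.11. Cr2, the complement receptor of B cells, was at 3.31, 1.97, 1.53 and 1.71 CPM in YFP- cells. In YFP+ cells it was detected in F15 alone, at 0.0909 CPM. Its call ended when any one mouse was left out (adjusted p from 0.0534 without F15 to 0.246 without M2) and without the mouse term (0.0628). The scaffold protein gene Bank1 rose (1.26 ± 0.31) from 7.18, 23.4, 23.2 and 4.52 to 34.1, 28.8, 32.5 and 20.1 CPM, with groups that overlap. Its call ended without M2 (0.397) or F12 (0.246), without the mouse term (0.694) and in limma voom (0.0538). Ptprc, which encodes CD45, did not pass (0.12 ± 0.20).

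Most genes that define a plasma cell did not pass, as with all genes tested, of which 2.18% passed. Of 20 identity genes 1 fell (5%, against 1.36% of all genes) and none rose (median -0.14). The one that fell was Trp53inp1, a stress-response regulator (-0.68 ± 0.13, adjusted p = 0.00164, and 0.335 without the mouse term). Prdm1, which encodes Blimp1, differed by -0.19 ± 0.13, Irf4 by -0.34 ± 0.15 and Xbp1, the ER-stress factor of secretion, by 0.13 ± 0.15. None of these passed. Neither did the ER protein gene Mzb1 (-0.46 ± 0.16), Jchain (-0.23 ± 0.19), the BCMA gene Tnfrsf17 (-0.32 ± 0.17) or Sdc1 (0.65 ± 0.30). For Sdc1 the YFP- library of M2, at 190 CPM, was the lowest of all 8, and F15 had 630 CPM in YFP- against 594 CPM in YFP+ cells.

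The SLAM family comprises homotypic receptors of lymphocytes that signal through small SH2 adaptors. Of 25 tested genes of the SLAM family and of inhibitory or costimulatory receptors, 4 fell (16%, against 1.36% of all genes) and 1 rose (4%, against 0.827%). The median was 0.20 (-0.09 with the stricter filter, 0.37 without F15 and 0.09 without M2). Slamf6 had the smallest p among genes that fell. It was at 100, 152, 94 and 106 CPM in YFP- cells and at 16.8, 12.2, 13.5 and 29.2 CPM in YFP+ cells (-2.66 ± 0.25, adjusted p = 6.9e-08). The lowest YFP- library was far above the highest YFP+ library. Tigit, an inhibitory receptor best known from T and NK cells, fell from 42, 38.7, 24.8 and 50.5 to 6.2, 5.86, 6.36 and 10.4 CPM (-2.41 ± 0.23). The value of F12 was the highest in both sorts. Cd48, a SLAM ligand, fell from 608, 330, 234 and 314 to 143, 135, 150 and 151 CPM (-1.30 ± 0.22, adjusted p = 0.000501), and its YFP+ libraries were again nearly equal.

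Cd2, the adhesion receptor that binds Cd48 in mice, fell along with it, from 33.1, 33.3, 28 and 39.4 to 4.44, 5.99, 8 and 20 CPM (-2.01 ± 0.28). F12 kept the most in its YFP+ cells. The SLAM adaptor gene Sh2d1b1 fell (-1.50 ± 0.37), but its groups overlapped, and the call ended without M2 (adjusted p = 0.274), without M3 (0.205) and without the mouse term (0.0685). Slamf9, another member of the family, went the other way. It rose from 48.7, 66.3, 111 and 49.8 to 153, 207, 164 and 103 CPM (1.22 ± 0.23, adjusted p = 0.00183). It rose in each mouse, and the YFP- value of F15 exceeded the YFP+ value of F12, so the groups overlap and the call ended without the mouse term (0.483).

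**Figure D2:**
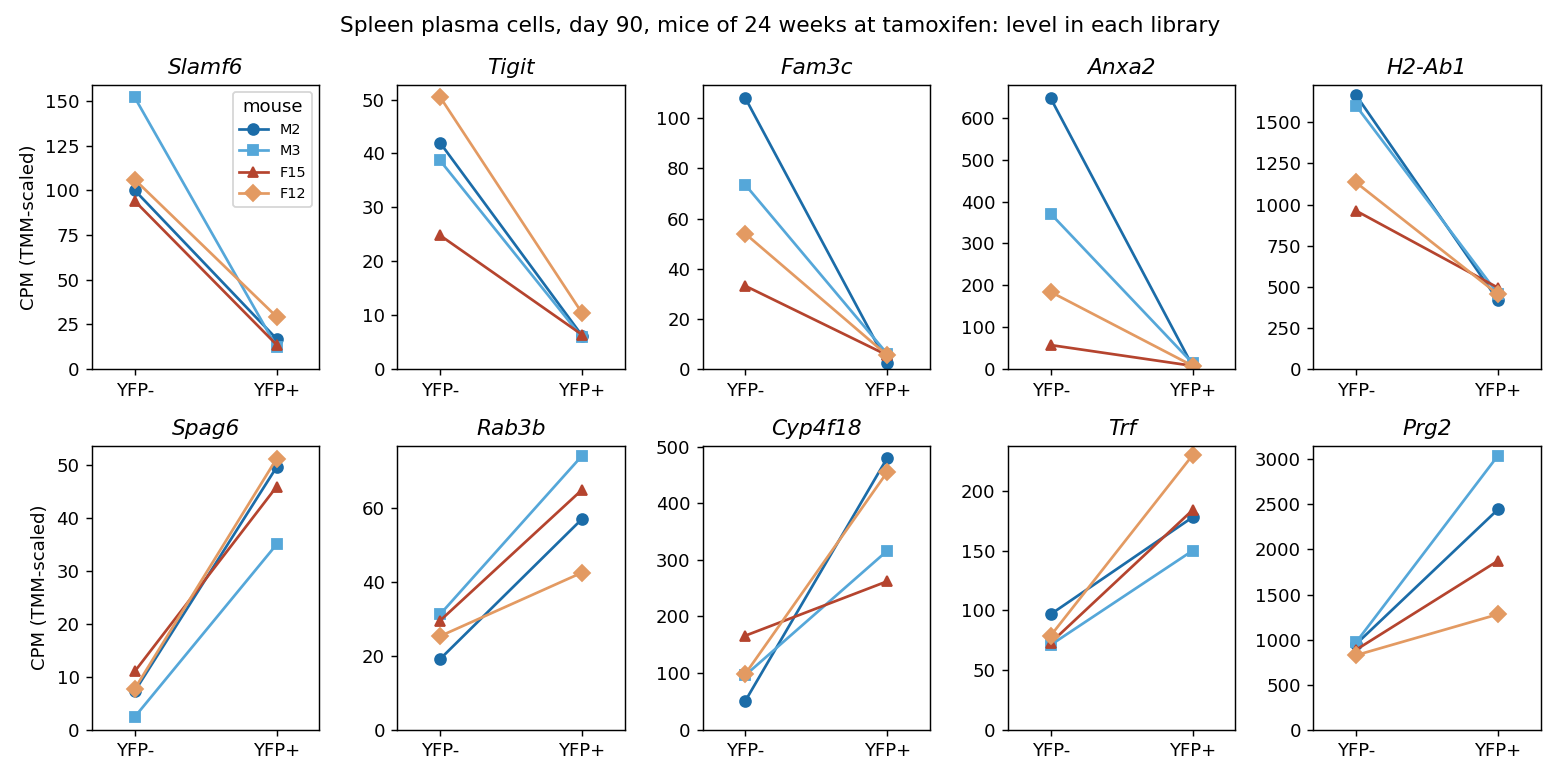
Levels in CPM (y axis, from 0) of 10 genes in the YFP- and YFP+ library of each mouse, joined by a line per mouse. In the upper row, 5 genes fell in each mouse, such as Slamf6, from 94 to 152 CPM in YFP- cells down to 12.2 to 29.2 CPM. In the lower row, 5 genes rose in each mouse, such as Spag6, from 2.41 to 11 up to 35 to 51.2 CPM.

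Among 20 survival and cytokine receptors, 3 fell (15%, against 1.36% of all genes) and 1 rose (5%, against 0.827%), with a median of 0. Cd93, a surface glycoprotein that plasma cells need to persist in marrow, rose from 19.8, 27.8, 33.3 and 44.8 to 56.6, 54.6, 63.9 and 93.8 CPM (1.12 ± 0.19, adjusted p = 0.000578). Cd38, an NAD-consuming ectoenzyme, fell from 31.8, 47.1, 42.5 and 25 to 10.5, 8.85, 21.8 and 11.6 CPM (-1.48 ± 0.27). For both genes the groups did not overlap. The hyaluronan receptor Cd44 (-0.65 ± 0.17) and the "do not eat me" ligand Cd47 (-0.50 ± 0.13) fell by less. The Cd44 call ended without M2 (adjusted p = 0.541), M3 (0.056) or F12 (0.151) and without the mouse term (0.154). The Cd47 call ended without M2 (0.468), M3 (0.112) or F12 (0.194), without the mouse term (0.103), with DESeq2 size factors (0.056) and with no filter (0.118). Cd28 was at 171 to 277 CPM in YFP- and 147 to 270 CPM in YFP+ cells and did not pass (-0.11 ± 0.12). Of 18 apoptosis regulators 1 fell, the death receptor gene Fas. It was at 68.3, 79.1, 57.3 and 72.3 CPM in YFP- and at 18.7, 22.3, 25.8 and 34.1 CPM in YFP+ cells (-1.45 ± 0.18, adjusted p = 9.15e-06). Mcl1, the survival factor downstream of BCMA, was at 186 to 279 and 195 to 227 CPM (-0.12 ± 0.14).

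Of 31 homing, adhesion and egress genes, which place lymphocytes in tissue, 6 fell (19.4%, against 1.36% of all genes) and 1 rose (3.23%, against 0.827%). The median was -0.23 (-0.03 without M3 and -0.01 without F15). The chemokine receptor gene Cxcr3, which draws cells to inflamed tissue, fell from 41.2, 56, 26.8 and 30.5 to 8.22, 1.75, 2.18 and 9.93 CPM (-2.88 ± 0.43, adjusted p = 0.00013). S1pr1, the receptor that guides lymphocytes out of tissue along sphingosine phosphate, was at 8.71, 11.6, 6.45 and 9.64 CPM in YFP- cells. It was at 0.135, 0.125, 0 and 1.97 CPM in YFP+ cells, so most of what was left came from F12 (-4.70 ± 0.85). Klf2, the transcription factor that drives S1pr1, fell as well (-1.73 ± 0.39), from 85, 31, 32.7 and 66.9 to 7.81, 4.86, 28 and 31.4 CPM. The drop in F15 was small, the groups overlapped, and the call ended without M2 (adjusted p = 0.274), M3 (0.124) or the mouse term (0.489).

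The integrin chain gene Itgam (CD11b) had the largest change among the genes the naming rule takes. It was at 46.6, 11.9, 6.22 and 19.9 CPM in YFP- and at 0.404, 0.125, 0.273 and 0.187 CPM in YFP+ cells (-6.11 ± 0.61, adjusted p = 1.78e-07). The YFP+ values rest on very few counts. Itgb7, the chain of gut-homing integrins, fell from 125, 65.4, 61.5 and 119 to 27.9, 10.7, 52.5 and 62.6 CPM (-1.40 ± 0.37). Its call ended without M2 (0.402), M3 (0.255) or F12 (0.0921) and without the mouse term (0.545). Its partner chain gene Itga4 did not pass (-0.69 ± 0.20, adjusted p = 0.0652). Ccr9, a gut-homing chemokine receptor, rose from 5.16, 2.52, 4.69 and 2.61 to 7, 3.74, 11.7 and 14.2 CPM (1.19 ± 0.33, adjusted p = 0.0486). That call ended when any one mouse was left out (0.0645 to 0.389, the highest without F12), in limma voom (0.0633) and without the mouse term (0.362). The mucosal receptor gene Ccr10 did not pass (-0.98 ± 0.29, adjusted p = 0.0708), with 187 CPM in the YFP- library of F12 and 67 to 81.6 CPM in those of the other mice.

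Other genes with large drops encode secreted, membrane-associated or metabolic proteins. Fam3c, a cytokine-like secreted protein, fell from 108, 73.4, 33.1 and 53.9 to 2.29, 5.99, 5.46 and 5.43 CPM (-3.70 ± 0.37, adjusted p = 1.98e-07). Anxa2, a calcium-dependent membrane-binding protein, fell from 647, 371, 57 and 184 to 6.87, 13.7, 7.36 and 7.59 CPM (-4.65 ± 0.55, adjusted p = 9.15e-06). In both genes the YFP- library of M2 was the highest and that of F15 the lowest, and the groups did not overlap. The spermine synthase gene Sms fell from 40.6 to 70.7 CPM down to 17.7 to 20.1 CPM (-1.55 ± 0.20). Atp1b1, a chain of the sodium pump, fell from 43 to 111 CPM down to 14.7 to 31.8 CPM (-1.68 ± 0.22). The lymphocyte GTPase gene Gimap7 fell in each mouse (-1.14 ± 0.15), with overlapping groups, and its call ended without the mouse term (adjusted p = 0.154).

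Prss57 and Gzma, both on the lower side, stand on lists of other blood cells. Prss57, a serine protease of granulocytes, fell from 63.2, 28.4, 11.5 and 45 to 0.269, 3.49, 1.27 and 2.06 CPM (-4.19 ± 0.39, adjusted p = 6.9e-08). Of the 16 neutrophil and precursor markers 14 were tested and Prss57 alone passed. Of the 14, 11 had a negative and 3 a positive change, with a median of -2.14 (-3.61 without M2 and -0.43 without M3). The 16 markers summed to 45.4 to 265 CPM in YFP- and 7.03 to 69.1 CPM in YFP+ cells. Within mice, that sum was lower in YFP+ cells of M3 (265 to 12.3 CPM) and F12 (137 to 7.03) and not of M2 (65.2 to 69.1) or F15 (45.4 to 50.5), unlike Prss57 itself. The primary granule gene Elane was detected at 9.74 CPM in YFP- F12, 3.77 CPM in YFP+ M2 and 0.562 CPM in YFP+ F12 and was at 0 in the other libraries. Gzma, the granzyme A gene, fell from 78.5, 27.5, 17.4 and 52.4 to 3.77, 2.24, 5.55 and 13.3 CPM (-2.82 ± 0.40, adjusted p = 5.75e-05, and 0.0509 without the mouse term). The 12 NK markers summed to 36.6 to 96.7 CPM in YFP- and 6.24 to 39.4 CPM in YFP+ cells. Of the 5 tested, 4 had a negative and 1 a positive change (median -1.22), and Gzma and Il2rb, the interleukin 2 and 15 receptor beta chain gene, fell. The Il2rb call (-2.37 ± 0.61) ended without M2 (0.0535), M3 (0.216) or F15 (0.131), in limma voom (0.133) and without the mouse term (0.591). The NK receptor gene Klrb1c was at 0 in all 8 libraries, and Ncr1 was detected in YFP- F15 alone, at 0.352 CPM.

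Among the genes that rose, Spag6, a protein of motile cilia, had the smallest p. It was at 7.26, 2.41, 11 and 7.73 CPM in YFP- and at 49.6, 35, 45.9 and 51.2 CPM in YFP+ cells (2.76 ± 0.31, adjusted p = 1.6e-06). It has a close paralog, and sharing of reads was not tested. Rab3b, a small GTPase of regulated secretion, rose from 19.1, 31.2, 29.5 and 25.3 to 57, 74.1, 64.9 and 42.5 CPM (1.18 ± 0.15, adjusted p = 1.01e-05). It was the one gene to pass among 48 tested Rab GTPases, whose median change was 0.08. Cyp4f18, a P450 that inactivates leukotriene B4, rose from 51, 96.2, 166 and 98.7 to 480, 316, 262 and 455 CPM (1.89 ± 0.26). M2, the lowest mouse in YFP- cells, was the highest in YFP+ cells, and F15 was the reverse.

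Creb3l1, an ER-anchored transcription factor of secretory cells, rose from 11.5, 10.7, 12.1 and 14.1 to 26.4, 34.9, 22.2 and 34 CPM (1.25 ± 0.19, adjusted p = 0.000167). Trf, the iron carrier transferrin, rose from 96.7, 71, 72.8 and 78.8 to 178, 150, 184 and 230 CPM (1.22 ± 0.20). Mgll, the lipase of monoacylglycerols, rose from 5.89 to 26.5 CPM up to 36.5 to 47.9 CPM (1.57 ± 0.26). These groups did not overlap. Ptov1 rose from 2.85 to 14.8 CPM up to 17.7 to 26.4 CPM (2.03 ± 0.36), and F15 had both the highest YFP- value and the smallest difference.

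For several others the rise within each mouse was clearer than the difference between groups. Wnt10a, a secreted Wnt ligand, rose from 30.7, 47.8, 45.2 and 10 to 93.6, 136, 78.1 and 41.3 CPM (1.49 ± 0.20, adjusted p = 1.88e-05). F12 was low in both sorts, so its YFP+ library lay within the YFP- range. Spns3, of the spinster family of transporters, rose from 7.82, 23.9, 29 and 6.13 to 88.2, 71.5, 53.6 and 19.3 CPM (1.96 ± 0.28). Lgals9, the sugar-binding galectin-9 gene (1.13 ± 0.16), and Il13ra1, an interleukin 13 receptor chain gene (1.10 ± 0.20), also rose with overlapping groups. B3galnt1, a glycosyltransferase of globoside synthesis, rose from 9.11, 11.4, 35.9 and 7.93 to 70.3, 63.4, 66.1 and 45.7 CPM (2.28 ± 0.36). Without the mouse term the calls of these 5 genes ended (adjusted p = 0.633 for Wnt10a, 0.139 for Spns3, 0.0981 for Lgals9, 0.509 for Il13ra1 and 0.412 for B3galnt1).

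Prg2, the major basic protein gene of eosinophils, rose from 949, 969, 886 and 826 to 2444, 3041, 1874 and 1280 CPM (1.17 ± 0.22, adjusted p = 0.00215). It was nearly uniform in YFP- cells and spread more than 2-fold in YFP+ cells. Its call ended without M3 (adjusted p = 0.0513) and without the mouse term (0.169). The 12 eosinophil, basophil and mast cell markers summed to 834 to 979 CPM in YFP- and 1288 to 3047 CPM in YFP+ cells, nearly all of it Prg2. Of the 9 tested, 2 had a positive and 7 a negative change (median -0.19), and Prg2 alone passed. The eosinophil gene Siglecf and the basophil genes Mcpt8 and Fcer1a were at 0 in all 8 libraries, and Epx, the eosinophil peroxidase gene, was detected in YFP- F15 alone, at 0.117 CPM.

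Several cell cycle genes fell in YFP+ cells, and their level in YFP- cells differed between mice. Of 32 proliferation genes 9 fell (28.1%, against 1.36% of all genes) and none rose, and the median change was -2.79. The median was -1.58 without M3 and -3.54 without F12, -4.81 in M2 and M3 alone and -0.45 in F15 and F12 alone, and the number that fell was 2 without M2, 3 without M3 and 15 without F15. Summed over the list, YFP- libraries held 284 to 824 CPM and YFP+ libraries 214 to 291 CPM. The ubiquitin-conjugating enzyme gene Ube2c, which ends mitosis, was at 79.8, 61.4, 6.22 and 3.92 CPM in YFP- and at 0, 1.25, 0.909 and 0 CPM in YFP+ cells (-6.04 ± 1.11). The mitotic kinase gene Cdk1 was at 26.3, 26, 5.4 and 5.83 CPM in YFP- and at 0.269, 0.624, 2.45 and 0.562 CPM in YFP+ cells (-4.14 ± 0.75, adjusted p = 0.00115). Both were several times higher in the YFP- cells of M2 and M3 than in those of F15 and F12.

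Cdk1 and Ube2c kept their call with any one mouse left out. The other members that fell did not: Aurkb (-3.13 ± 0.77), Birc5 (-4.57 ± 1.18), Ccna2 (-4.34 ± 1.05), Ccnb2 (-5.37 ± 1.36), Cdca8 (-3.58 ± 0.90) and Nusap1 (-4.39 ± 1.15) lost it without M2 (adjusted p from 0.149 for Cdca8 to 0.272 for Nusap1) and without M3 (0.128 for Aurkb to 0.227 for Birc5). Birc5 (0.132), Ccnb2 (0.0811) and Nusap1 (0.0921) lost it without F12 as well. Birc5 (0.206), Ccna2 (0.0764), Ccnb2 (0.13) and Nusap1 (0.128) also lost it without the mouse term, and Ccnb2 in limma voom (0.0932). Birc5, the survivin gene, shows the pattern, with 53.5, 42.4, 4.22 and 3.72 CPM in YFP- and 0.404, 0, 5.46 and 0.187 CPM in YFP+ cells. Mki67, the proliferation antigen gene, was at 70.6, 36.2, 24.3 and 52.2 CPM in YFP- and at 12.8, 18.8, 25.5 and 13 CPM in YFP+ cells (-1.45 ± 0.35). In F15 it did not drop, and its call ended without M2 (0.374), F12 (0.176) or the mouse term (0.0509).

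Promoters of mitotic genes often hold CCAAT boxes and a cell cycle homology region. Those of Cdk1 and Ube2c, whose calls held with each mouse left out, are shown as the 150 bases before the gene start in RefSeq (GRCm38.p6), at chr10:69352913-69353062 (minus strand) and chr2:164769779-164769928 (plus strand), 5′ to 3′ on the strand of the gene. Capitals mark CCAAT or ATTGG, and TTTGAA or TTCGAA on either strand.
Cdk1: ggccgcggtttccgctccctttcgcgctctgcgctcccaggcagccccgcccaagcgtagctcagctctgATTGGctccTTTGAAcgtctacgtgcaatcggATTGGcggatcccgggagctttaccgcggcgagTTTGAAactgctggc
Ube2c: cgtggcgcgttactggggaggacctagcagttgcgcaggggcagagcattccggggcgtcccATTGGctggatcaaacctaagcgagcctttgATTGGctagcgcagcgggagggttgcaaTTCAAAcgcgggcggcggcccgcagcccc
Each window held ATTGG more than once, and Cdk1 held TTTGAA more than once. In the 250 bases upstream of starts, CCAAT occurred in 22 and TTTGAA or TTCGAA in 10 of 26 proliferation genes with a window. Counted by window, the shares were 85.2% and 37.0% of 27, against 33.8% and 17.1% of all 32851 windows. Of the genes that fell 7 had a window, and of these 5 held CCAAT and 4 held TTTGAA or TTCGAA. Most genes with a match thus did not pass.

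**Figure D3:**
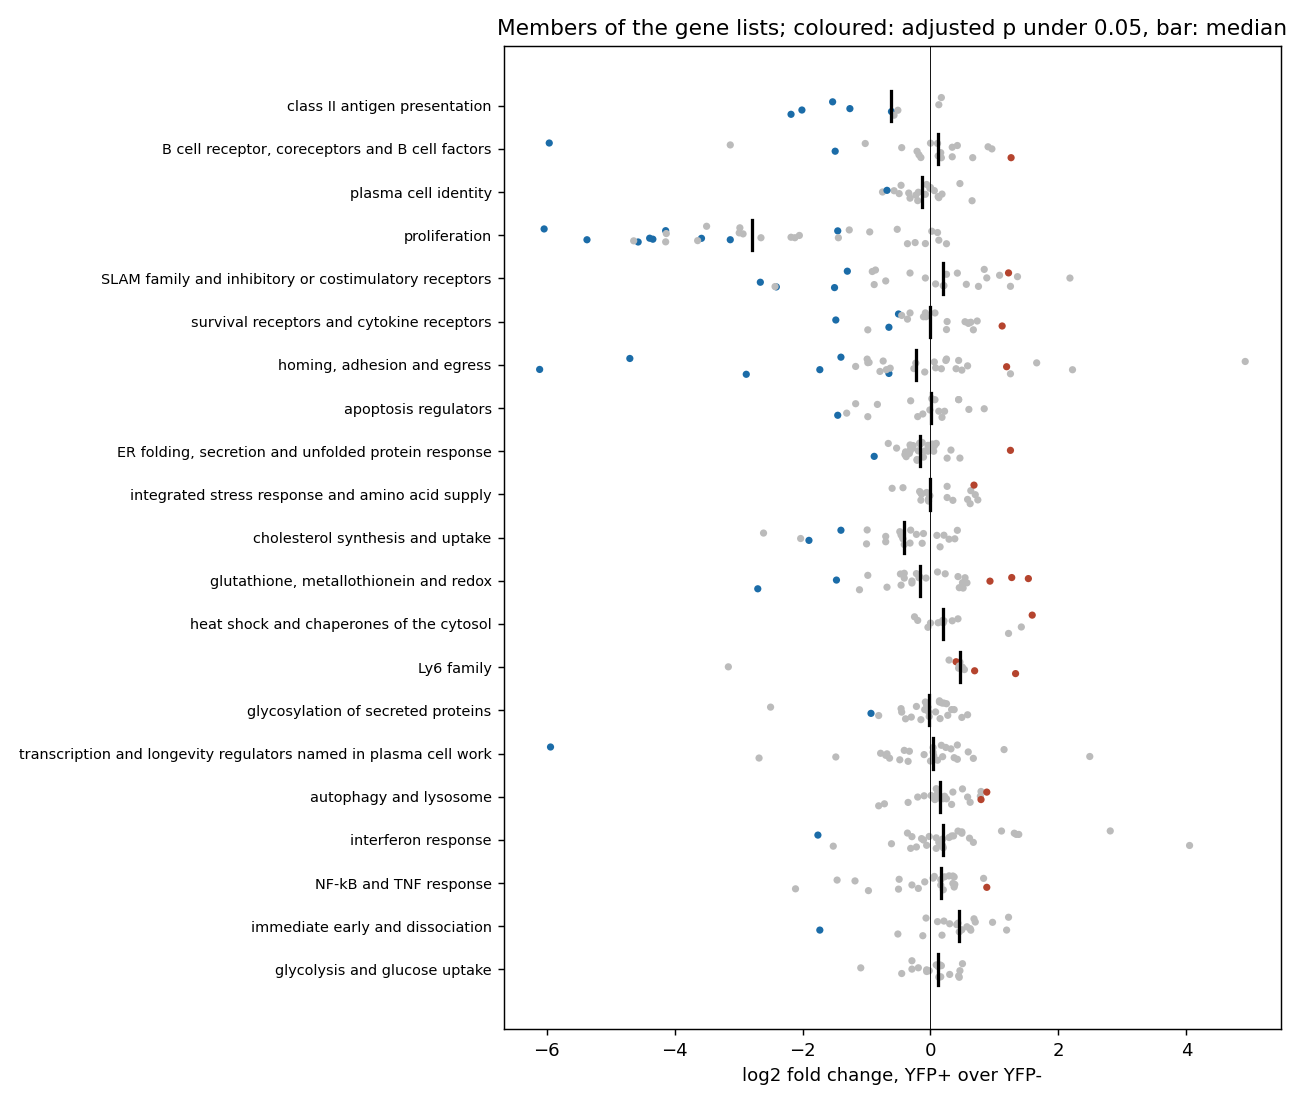
Log2 change of YFP+ over YFP- cells (x axis) for each tested member of 21 gene lists (rows). Red and blue points passed the test upward and downward, grey points did not, and the black bars mark each list's median. The proliferation list has its bar at -2.79 and the class II list at -0.61, and most other bars lie within 0.5 of 0.

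The ER, glycosylation and cholesterol lists had 1 or 2 members called each. Of 34 ER folding and secretion genes 1 rose (Creb3l1) and 1 fell, Rcn3, a calcium-binding ER protein (-0.88 ± 0.20), with a list median of -0.16. These are 2.94% each way, near the shares of all genes (0.827% and 1.36%). The Rcn3 call ended without M3 (adjusted p = 0.0677), F12 (0.123) or the mouse term (0.0502). Of 27 glycosylation genes 1 fell, the sialyltransferase gene St6gal1 (-0.93 ± 0.21). It was at 355 and 384 CPM in the YFP- cells of M2 and F12 but at 137 and 119 CPM in those of M3 and F15, against 105 to 132 CPM in YFP+ cells. Its call ended without M2 (0.279), F12 (0.179) or the mouse term (0.29). Of 24 cholesterol genes 2 fell (median -0.42), the isomerase gene Idi1 (-1.40 ± 0.32) and the carrier gene Stard4 (-1.90 ± 0.51). Idi1 lost its call without M2 (0.28) or M3 (0.166). Stard4 lost it without M2 (0.552), M3 (0.104), F12 (0.156) or the mouse term (0.103). Sqle, the squalene epoxidase gene, did not pass, at 13 to 21.4 CPM in YFP- and 5.79 to 16 CPM in YFP+ cells (adjusted p = 0.0821).

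Of 27 glutathione, metallothionein and redox genes 3 rose and 2 fell. Gpx3, a secreted glutathione peroxidase, fell from 35.8, 17.3, 17.3 and 28.6 to 1.08, 4.86, 4.91 and 4.12 CPM (-2.70 ± 0.45, adjusted p = 0.000466). Gsto1, a glutathione transferase, also fell (-1.47 ± 0.35), and its call ended without M2 (0.307), M3 (0.0646) or F12 (0.116). The metal-binding Mt1 (1.27 ± 0.33) and Mt2 (1.53 ± 0.36) rose, and both lost their calls when any one mouse was left out (0.0619 to 0.171 for Mt1 and 0.0536 to 0.0978 for Mt2, each highest without M3) and without the mouse term (0.119 and 0.0764). The transferase gene Gstm1 rose (0.93 ± 0.25), and lost its call without M2 (0.216), M3 (0.226), F12 (0.0936) or the mouse term (0.132). Of 13 cytosolic chaperones 1 rose, the small heat shock protein gene Hspb1, from 9.92, 11.2, 11 and 15.4 to 39.9, 37.7, 38.7 and 26.4 CPM (1.59 ± 0.31, adjusted p = 0.00229).

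The Ly6 family encodes small lipid-anchored surface proteins. Of 10 tested members 3 rose and none fell, with a median of 0.45. Ly6a (Sca-1) was at 2123, 2956, 3160 and 3471 CPM in YFP- and at 3800, 6772, 4505 and 4209 CPM in YFP+ cells (0.69 ± 0.18), Ly6e changed by 0.40 ± 0.11, and Ly6i was at 20.8 to 29.6 and 45.6 to 95 CPM (1.33 ± 0.26). These calls were among the less stable: without M3 the adjusted p were 0.231, 0.229 and 0.0549. Without M2 those of Ly6a and Ly6e were 0.24 and 0.283, without F12 that of Ly6e was 0.139, and without the mouse term all 3 ended (0.28, 0.326 and 0.16). Ly6e also missed the threshold with the stricter filter (0.0589) and with none (0.0722). Sharing of reads among paralogs was not tested for the Ly6, metallothionein and Gstm genes.

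Of 27 amino acid transporters 2 rose (7.41%, against 0.827% of all genes): Slc7a4, of the cationic transporter family, from 1.13, 1.42, 4.58 and 0.703 to 8.75, 13.7, 13.7 and 17.1 CPM (3.05 ± 0.45, adjusted p = 8.03e-05), and Slc3a2, the CD98 heavy chain gene (0.68 ± 0.17). Slc3a2 lost its call without M2 (0.407), M3 (0.0776), F12 (0.151) or the mouse term (0.553). Of 26 autophagy and lysosome genes 2 rose (7.69%, median 0.15), the protease gene Ctsl, from 41.8 to 61.2 up to 82.6 to 114 CPM (0.79 ± 0.16), and Lamp1, a lysosomal membrane protein gene (0.88 ± 0.19). Lamp1 lost its call without M2 (0.125), F12 (0.112) or the mouse term (0.362). Of 50 proteasome genes 1 fell (2%, against 1.36% of all genes). It was Psmd8 (-0.55 ± 0.14), which lost its call without M2 (0.536), M3 (0.0977), F12 (0.101) or the mouse term (0.129), and with no filter (0.0667). No gene passed among 80 nuclear-encoded respiratory chain genes (median -0.09), 13 mitochondrially encoded genes (-0.40, and -0.06 without M2), 80 ribosomal protein genes (-0.13) or 19 glycolysis genes (0.12).

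Of 28 transcription and longevity regulators, 1 fell: Zbtb32, a zinc finger repressor of activated lymphocytes. It was at 13.8, 10.2, 3.76 and 4.72 CPM in YFP- cells and at 0, 0, 0.273 and 0.0937 CPM in YFP+ cells (adjusted p = 0.000198). Of 32 interferon genes 1 fell, Isg15 (-1.76 ± 0.44), whose call ended without M2 (0.214), M3 (0.0658), F12 (0.247) or the mouse term (0.111). Of 23 NF-kB and TNF genes 1 rose, the cytokine subunit gene Ebi3 (0.88 ± 0.23), whose call ended without M2 (0.357), M3 (0.167) or the mouse term (0.636). Among 20 immediate early and dissociation genes the median was 0.44, and the one to pass was Klf2, which fell.

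The 4 mice differed in how far the sorts stood apart. Over the 103 genes that rose, the median difference within a mouse was 1.57 in M2, 1.15 in M3, 1.23 in F12 and 0.72 in F15. Over the 169 that fell it was -2.2 in M2, -1.83 in M3, -1.32 in F12 and -0.9 in F15. These genes were chosen on the same data, so the medians only rank the mice, and F15 had the smallest difference on both sides. Of the 30 genes the naming rule takes, all moved the same way in the 4 mice and 24 had groups that did not overlap, which the choice by small p in these pairs favours. Over all genes tested, 561 (4.5%) did not overlap, 263 with all YFP+ libraries above (2.11%) and 298 below (2.39%). The titles give M2 and M3 another date (09-15) than F15 and F12 (09-17), so the M and F prefix and the date cannot be told apart. Within the earlier date 63 genes rose and 141 fell, and within the later one 3 rose and 8 fell, each from 2 pairs. In a direct test of the difference between F-prefixed and M-prefixed mice no gene passed by edgeR (smallest adjusted p 0.392). At an unadjusted p under 0.05 there were 511 genes, DESeq2 called 100 and limma voom 0.

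**Figure D4:**
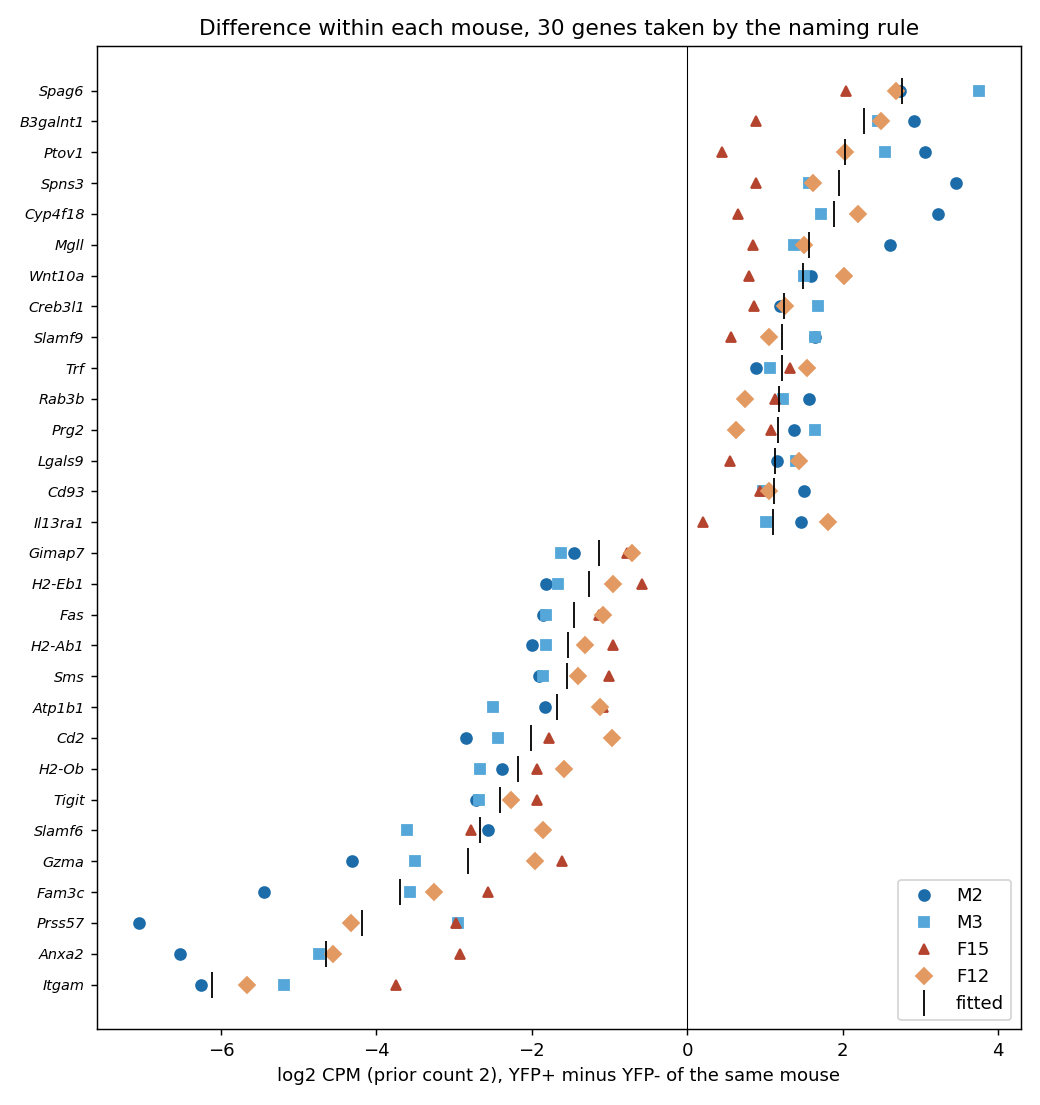
Difference in log2 CPM (prior count 2) between the YFP+ and YFP- library of each mouse (x axis) for the 30 genes taken by the naming rule (rows), with a symbol per mouse and a black bar for the fitted change. All symbols of a gene lie on one side of 0, and those of F15 (triangles) are often nearest to 0.

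All 30 of these genes passed without M2, without F15 and without F12, and 29 passed without M3, Prg2 being the exception. The count over all genes was less stable, a contrast that the choice of the 30 by small p favours. Without M2, M3 or F12 there were 31, 57 and 51 genes that rose and 65, 86 and 124 that fell. Without F15 there were 177 and 216. In a fit without the mouse term 19 rose and 81 fell, and 21 of the 30 passed. In a fit of the 24-week day-90 libraries of both organs all 30 passed, while 29 of the list members named above lost their call. In a fit of these 8 libraries alone, where 4 pairs leave few degrees of freedom, 2 rose and 7 fell, and 7 of the 30 passed. No gene called here changed its direction in any alternative fit.

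Young mice gave an independent set of animals for the same contrast of the spleen, with both sorts from mice F2 and F9. In them 163 genes rose (1.31%) and 183 fell (1.47%), together 2.78%. Of the 103 genes that rose in 24-week mice 51 (49.5%, or 31.3% of the young calls) rose in young mice. Of the 169 that fell 77 (45.6%, or 42.1%) fell there, and no gene was called in opposite directions. Of the 30 genes of the naming rule 28 were called in young spleen, the exceptions being H2-Ob (-0.92 ± 0.28, adjusted p = 0.0864) and Atp1b1 (-0.75 ± 0.26, adjusted p = 0.178). Slamf6 changed by -4.01 ± 0.32 in young and -2.66 ± 0.25 in 24-week mice, and Wnt10a by 3.15 ± 0.26 and 1.49 ± 0.20. Tested directly, the difference between ages passed for no gene by edgeR (smallest adjusted p 0.166, with 636 genes at an unadjusted p under 0.05). DESeq2 called 62 genes and limma voom 0.

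In marrow of the same 4 mice fewer genes were called. There 22 genes rose (0.177%) and 52 fell (0.417%), together 0.594%. Of these 12 and 31 were also called in spleen (11.7% and 18.3% of the spleen calls, and 54.5% and 59.6% of the marrow calls). Of the 30 genes of the naming rule 15 were called in marrow. Spag6 changed by 1.45 ± 0.29 in marrow, Slamf6 by -1.69 ± 0.23 and H2-Ab1 by -1.11 ± 0.17. Fam3c was nearly alike in both organs (-3.47 ± 0.37 in marrow and -3.70 ± 0.37 in spleen). Tested directly, 2 genes differed between the organs (0.0161%), 1 higher and 1 lower (0.00803% each). Itgam fell further in spleen than in marrow by 4.38 on the log2 scale, with 1.64 to 12.5 CPM in YFP- and 0.873 to 4.17 CPM in YFP+ marrow cells (adjusted p = 0.031). That call ended without M2 (0.34), M3 (0.119) or F12 (0.159), in a fit of the 24-week libraries alone (0.148) and without the mouse term (0.786). The other gene, the peptidase gene Dpp4, is outside the naming rule and was singled out after its values were seen. It did not differ between sorts in spleen (0.29 ± 0.45), while marrow cells held 2.77 to 10.3 CPM in YFP- and 0 to 1.42 CPM in YFP+ libraries (difference 4.30 ± 0.74, adjusted p = 0.031). No gene passed for this difference without M2 or without F12, and 1 passed without M3. In these fits the marrow libraries of all 4 mice stayed in, so spleen of fewer mice was set against that marrow.

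At day 5 the mark had just been set, and the YFP+ and YFP- libraries of spleen differed mostly in other genes. None of the 30 genes was called there, although 174 genes rose (1.4%) and 282 fell (2.26%), together 3.66%. No gene rose on both days. Of the genes that fell at day 90, 9 also fell at day 5 (5.33% of the day-90 and 3.19% of the day-5 calls). No gene was called in opposite directions. The ribosomal protein list had a median change of -1.01 at day 5, the respiratory chain list one of -0.91 and the mitochondrially encoded list one of -1.04. The class II and proliferation lists had medians of -0.79 and -1.11 at day 5, of the same sign as at day 90 (-0.61 and -2.79). The marker lists of monocytes and macrophages and of erythroid cells had medians of -3.75 and -3.73 at day 5, against 1.22 and 2.75 at day 90. The day-90 medians depended on the fit. That of monocytes and macrophages was -0.46 in M2 and M3 alone, 2.58 in F15 and F12 alone and 0.3 in limma voom. The erythroid median was 0.35 without M3 and 4.46 without F15. The part of both lists in the results that follow was not tested. Slamf6 was at 76.5 to 161 CPM in YFP+ and 98.3 to 122 CPM in YFP- cells at day 5, and Tigit at 18.1 to 77.2 and 18.2 to 78.3 CPM. Spag6 was at 2.25 to 11 and 2.25 to 13.4 CPM. For these genes both sorts at day 5 thus lay near the YFP- level of day 90.

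The direct test of day 90 against day 5 passed for 91 genes (0.731%), 49 higher and 42 lower. Among them were 11 of the 15 higher and 11 of the 15 lower genes of the naming rule. These were chosen on the day-90 part of that difference. Slamf6 (-2.87 ± 0.36), Prss57 (-4.01 ± 0.53) and Tigit (-2.36 ± 0.33) led the lower side by p, and Creb3l1 (1.89 ± 0.29), Spns3 (2.48 ± 0.41) and Cpq, a carboxypeptidase gene (2.55 ± 0.43), the higher side. Cpq itself did not pass at day 90 (0.97 ± 0.27, adjusted p = 0.0543), and at day 5 it was lower in YFP+ cells (-1.58 ± 0.33, adjusted p = 0.0352). Without the mouse term the differences of Spns3 (0.517), Cpq (0.922) and Tigit (0.508) no longer passed. The class II genes H2-Ab1 (-1.05 ± 0.26, adjusted p = 0.0519), H2-Ob (-1.34 ± 0.34, 0.057) and H2-Eb1 (-0.79 ± 0.25, 0.14) missed the threshold of this difference. Their changes at day 5 were -0.48, -0.85 and -0.47, and none of these passed. The count of 91 was 35 without M3.

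**Figure D5:**
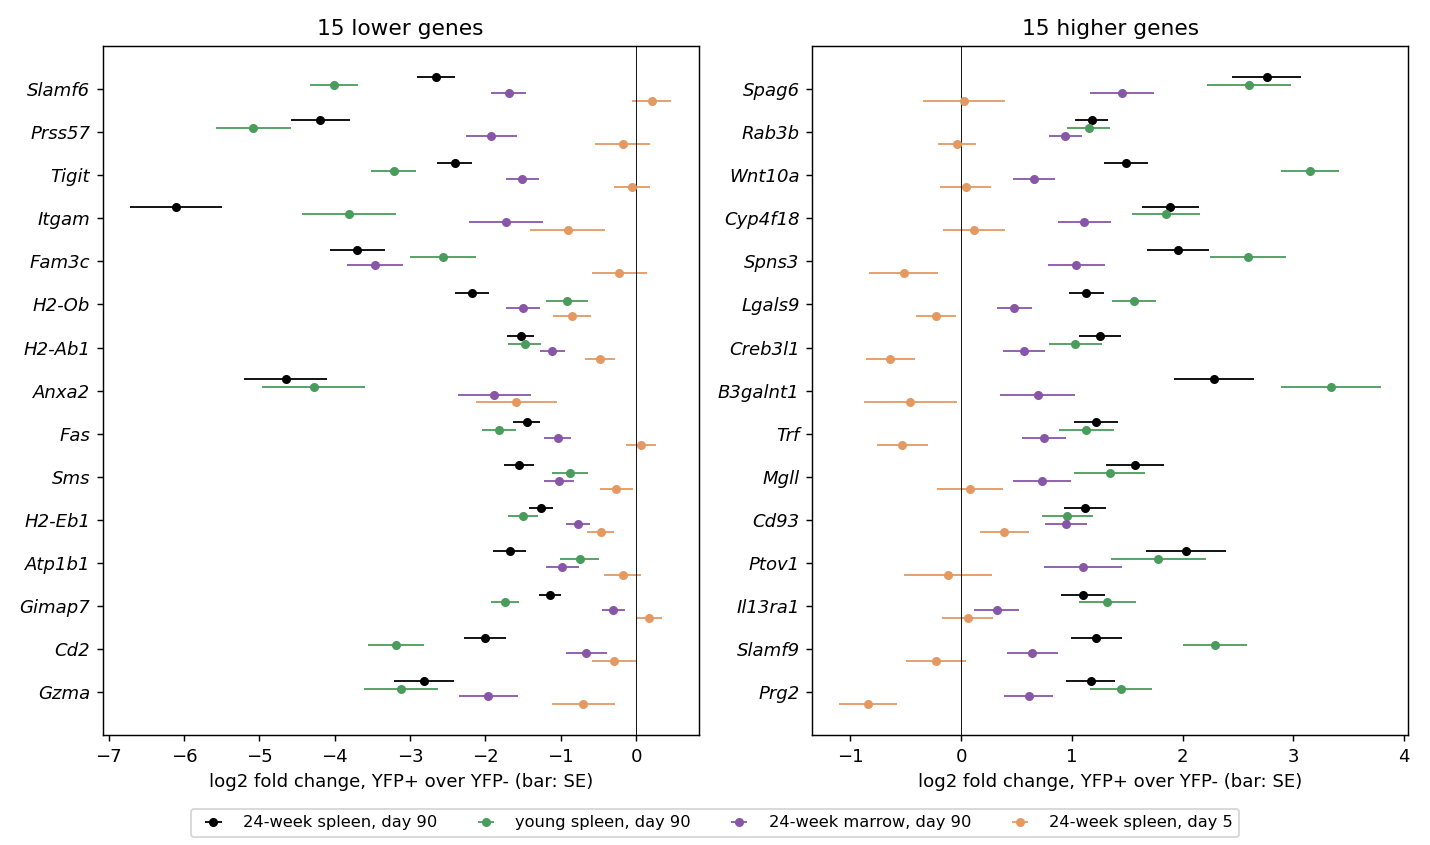
Log2 change of YFP+ over YFP- cells with its SE (x axes) for the 15 lower (left) and 15 higher (right) genes of the naming rule, in 24-week spleen at day 90 (black, the contrast that chose them), young spleen (green), 24-week marrow (purple) and 24-week spleen at day 5 (orange). Points of young spleen lie on the same side of 0 as the black ones, and day-5 points lie near 0 for most genes.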

How the data were processed

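The data are mRNA-seq of sorted mouse plasma cells, made with SMART-Seq v4 and Nextera XT per the labels. The authors deposited a table of expected counts per gene, with immunoglobulin genes left out per the file name. Tools listed in the submitters' processing notes are RSEM 1.3.1, STAR 2.6.1b and DESeq2 1.26.0. The notes list the builds GRCm38 (mm10) and GRCm39 (mm39), and which was used for what is not given in the sources used here. Of the values 3.1% were not whole, and all were rounded. Of 54960 rows, 1362 have no gene name.

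Groups come from the labels. One day-5 marrow library, whose title and cell type label disagree, is in no group. The test was that of edgeR 4.0.16 (R 4.3.3) on the rounded counts: TMM, filterByExpr (minimum count 10, 12457 genes), 1 robust quasi-likelihood fit of 43 libraries of 13 mice with mouse as a block (21 residual degrees of freedom), and Benjamini-Hochberg adjustment at 0.05 within each contrast. The script was tested on simulated data. Sorts were paired because both come from the same animal. The correlation of their deviations from the group means was -0.011, 0.12, 0.1 and 0.2 in M2, M3, F15 and F12, against -0.19 to 0.14 (median -0.04) between different mice.

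The naming rule takes up to 15 genes each way by p. These must pass the 0.05 threshold, change 2-fold or more and reach 20 CPM in the higher group. There were 31 higher and 57 lower genes that met the rule. It passes over unnamed gene models, pseudogenes, immunoglobulin genes, Xist and anything on the Y chromosome. Other genes of the X chromosome, such as Sms and Il13ra1, could be named. For differences between contrasts the rule takes up to 3 each way. The genes, lists and tests were chosen with earlier results of these data known, so lists are given as counts and medians with no test of their own. Some list members may be genes the study reported on. Alternatives were no mouse term, fewer libraries, DESeq2 1.42.0 size factors and Wald test, limma 3.58.1 voom, other filters (none, or 5 CPM in 3 libraries), each mouse left out and each date alone. Promoter windows are RefSeq's (GRCm38.p6). H2-Ab1 has no entry in that table. The result of 1 list member that passed is not reported here.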

Additional observations from a re-analysis of the deposited data

Results flagged for a closer look

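Of 184 groups of 4 libraries (92 genes in 2 sorts), 15 had 1 library that stood apart from the other 3, measured by its gap to the nearest relative to the whole range. For normally distributed values the cutoff would flag about 1 in 20 such groups by chance. Several groups here lie near 0 CPM, such as Cr2 in YFP+ cells, so that rate may not hold. The 15 of 184 therefore cannot be set against it. In 7 of the 15 the library was the YFP+ library of F15, among them 4 cell cycle genes: Birc5 at 5.46 CPM, Ccna2 at 3.18, Cdk1 at 2.45 and Ccnb2 at 2 CPM. The others in that library were Mgll at 47.9, Mt2 at 66.8 and Cr2 at 0.0909 CPM. The YFP+ library of F12 stood apart for Tigit at 10.4, Hspb1 at 26.4, S1pr1 at 1.97 and Sqle at 16 CPM. The YFP+ library of M2 was low for Fam3c at 2.29 CPM, and that of M3 was high for Anxa2 at 13.7 CPM. Among YFP- libraries, that of F15 was high for B3galnt1 at 35.9 CPM and that of F12 for Ccr10 at 187 CPM.

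The contrast of YFP+ with YFP- spleen cells differed from the one in marrow for Itgam (log2 difference -4.38). It differed from the one at day 5 for Creb3l1 (1.89), Spns3 (2.48), Cpq (2.55), Slamf6 (-2.87), Prss57 (-4.01) and Tigit (-2.36). Each passed a test of the difference itself by edgeR.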

How the results depend on the processing

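Counts of genes that rose and fell depended on the fit. The 30 genes of the naming rule kept their calls more often, which their choice by small p favours. Of these, 9 kept the call in every fit other than that of the 8 libraries, and 7 when it was included. Of 92 named genes, 70 lost their call in the 8 libraries alone, 67 within date 09-17 and 39 with no replicate block. Against 103 higher and 169 lower genes, the fit with no replicate block (no mouse term) gave 19 and 81, the 24-week day-90 libraries alone 42 and 72, and the 8 compared libraries alone 2 and 7. No filter gave 290 and 288, and the DESeq2 Wald test 243 and 320. With 1 mouse left out the counts ranged from 31 to 177 higher and from 65 to 216 lower. Within date 09-15 there were 63 higher genes, and within date 09-17 there were 3 higher and 8 lower. For the difference from marrow, 2 genes became 0 with no replicate block, in the 24-week libraries alone and within date 09-17, 98 with no filter and 82 in DESeq2, and 0 to 3 with 1 mouse left out. For the difference from young spleen, no filter gave 63 and DESeq2 62. For the difference from day 5, 91 genes became 7 with no replicate block, 538 with no filter, 399 in DESeq2, 2 within date 09-17 and 35 to 94 with 1 mouse left out. For F against M mice, no filter gave 76, DESeq2 100 and leaving out 1 mouse 0 to 8. The cause of these shifts was not tested.

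Within date 09-17, where 2 pairs remain, 9 of the 30 genes of the naming rule passed, and within date 09-15 all did but Trf. None of the named genes that passed reversed its direction under any alternative. DESeq2 size factors ended 1 named call, that of Cd47. Genes at a few counts per library, such as Itgam and Ube2c in YFP+ cells, have changes whose size rests on those few counts. Immunoglobulin genes were not analysed here.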
